A study of Mus musculus with 2 samples.

Results

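Fxr1, Fxr2 and Fmr1, the 3 genes of the fragile X family of RNA-binding proteins, were taken by gene symbol, with every transcript model the deposited tables assign to them. They are 3 of 15048 annotated genes with reads, and hold 40 of 91775 transcript models in replicate 1 and 46 of 94058 in replicate 2. The samples were hearts of B6CASTF1/J mice, the F1 hybrids of a cross, all female and 14 days old, with no treatment named, and their RNA was read by long-read sequencing, in which 1 read follows 1 transcript through its exons. There was 1 group of 2 libraries, numbered as biological replicates 1 and 2, so no condition was compared. The labels give both libraries the same donor and name the animals in conflicting ways, so it is not clear how many mice each library holds, and the difference between libraries can be a technical one. All p-values and intervals given cover counting error only.

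Proteins of this family bind messenger RNA through KH domains and an arginine- and glycine-rich stretch, associate with ribosomes and with cytoplasmic RNA granules, and hold back or sustain the translation of the messages they bind. Fmr1 encodes the protein whose loss causes fragile X syndrome in people, and Fxr1 and Fxr2 encode its autosomal relatives. Fxr1 is the member known for striated muscle: mice without it die around birth with muscle defects, and mouse heart and skeletal muscle make longer forms of its protein by including an exon near the end of the coding sequence.

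Fxr1 (ENSMUSG00000027680.15) lies on the forward strand at chr3:34019943-34070322 of mm10, Fxr2 (ENSMUSG00000018765.5) at chr11:69632990-69653297 and Fmr1 (ENSMUSG00000000838.17) at chrX:68678541-68717963, both forward too. Their annotated forms Fxr1-201, Fxr2-201 and Fmr1-201 have 17 exons each. Exons 2 to 10 have the same lengths in all 3 genes, 53, 94, 72, 149, 94, 117, 171, 79 and 110 bases, which add up to 939 coding bases. Over those bases Fxr1 and Fxr2 are 71.8% identical, Fxr1 and Fmr1 71.2%, and Fxr2 and Fmr1 67.0%. Fxr1 and Fxr2 also share the length of exon 11, 87 bases, a length that Fmr1 has at exon 13. From exon 12 on, the lengths of exons with the same number part, apart from exon 14 of 201 bases in Fxr1 and Fxr2. The 5 alternative stretches of Fxr1 and Fmr1 shown further on lie in exons 12 to 16. Exon 4 has the highest identity of the 9 shared exons, with a mean of 76.9% over the 3 pairs, and exon 6 the lowest, with 62.1%. Exon 4 is shown as an example of how close the genes are, with capitals at the positions where the 3 differ. It lies at chr3:34046032-34046103, chr11:69641282-69641353 and chrX:68695014-68695085, and 49 of its 72 bases are equal in all 3 genes. All sequences are the mm10 reference from the GENCODE M21 transcripts, forward strand, and not read from these mice.
Fxr1 exon 4: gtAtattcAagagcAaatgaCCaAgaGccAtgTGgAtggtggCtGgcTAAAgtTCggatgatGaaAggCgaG
Fxr2 exon 4: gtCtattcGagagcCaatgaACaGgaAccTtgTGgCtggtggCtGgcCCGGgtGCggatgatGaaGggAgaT
Fmr1 exon 4: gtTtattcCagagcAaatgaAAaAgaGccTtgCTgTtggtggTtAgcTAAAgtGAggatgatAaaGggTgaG

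**Figure D1:**
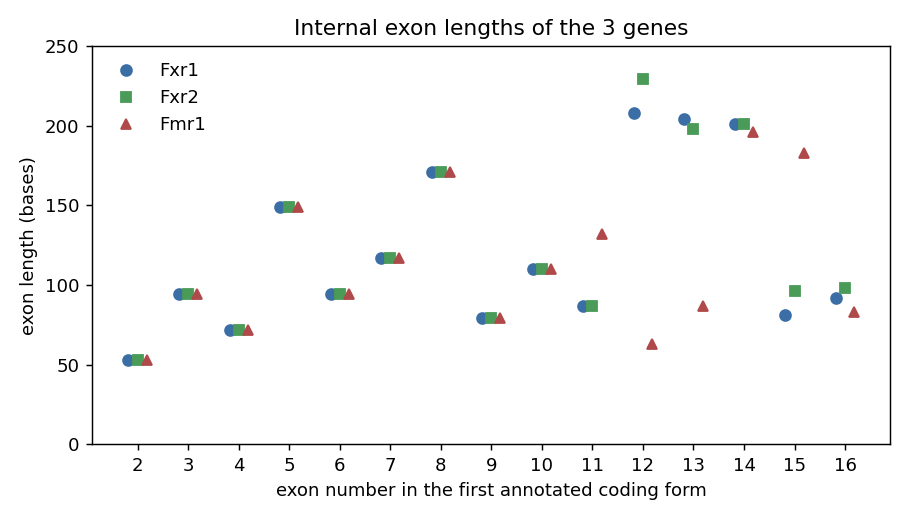
Length in bases of each internal exon, by exon number, in the first annotated coding form of Fxr1 (circles), Fxr2 (squares) and Fmr1 (triangles). The 3 genes coincide from exon 2 to exon 10 and part from exon 11 (Fmr1) or exon 12 (Fxr1 and Fxr2) on.

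The stretches that carry the splicing results are 5. The first is the 81-base exon of Fxr1, exon 15 of Fxr1-201, at chr3:34064974-34065054, the exon known to be included in striated muscle. The second is the 92-base exon 16 of Fxr1-201, at chr3:34068161-34068252. The third is an 87-base stretch inside exon 12 of Fxr1-201, at chr3:34058082-34058168, which can be removed as an intron, and its capitals mark the first and last 2 bases. The fourth is the 63-base exon 12 of Fmr1-201, at chrX:68705861-68705923. The fifth is the start of the 183-base exon 15 of Fmr1-201, at chrX:68712231-68712326, with capitals for the 2 bases just before each of its inner acceptors, the sites at which the exon can also begin. All 5 are coding in the forms named.
Fxr1 81-base exon: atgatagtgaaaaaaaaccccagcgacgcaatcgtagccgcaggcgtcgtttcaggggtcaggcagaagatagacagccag
Fxr1 92-base exon: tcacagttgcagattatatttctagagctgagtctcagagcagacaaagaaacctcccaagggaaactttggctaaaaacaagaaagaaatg
Fxr1 87-base intron: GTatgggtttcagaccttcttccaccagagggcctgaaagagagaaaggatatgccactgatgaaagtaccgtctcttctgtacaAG
Fmr1 63-base exon: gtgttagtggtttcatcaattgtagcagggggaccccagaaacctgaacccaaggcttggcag
Fmr1 183-base exon, start: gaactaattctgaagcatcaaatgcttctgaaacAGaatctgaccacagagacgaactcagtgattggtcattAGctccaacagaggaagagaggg

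Fxr2 gave the most reads of the family and Fmr1 the fewest. Fxr2 had 126 reads in replicate 1 and 118 in replicate 2, or 147 and 127 CPM (read counts scaled to the library's total of 858071 or 926560 reads). Fxr1 had 62 and 69 reads, or 72.3 and 74.5 CPM. With annotated models alone it had 33 and 31 reads. Scaled to the 668839 and 728992 reads of such models, that is a mean of 45.9 CPM. Fmr1 had 27 and 21 reads, or 31.5 and 22.7 CPM. The means were 137 ± 13.8 CPM for Fxr2, 73.4 ± 1.57 for Fxr1 and 27.1 ± 6.22 for Fmr1 (SD, n = 2), and in each library the exact Poisson intervals of the 3 genes stood apart. In replicate 1 these were 122 to 175 CPM for Fxr2, 55.4 to 92.6 for Fxr1 and 20.7 to 45.8 for Fmr1. In replicate 2 they were 105 to 153, 57.9 to 94.2 and 14.0 to 34.6 CPM. These levels count reads and were not divided by length, because 1 long read stands for 1 transcript, and the annotated forms with 17 exons are 2459 bases long for Fxr1, 2951 for Fxr2 and 4409 for Fmr1. Whether the length affects how often a transcript was read to its end was not tested.

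Among 12300 annotated genes with a read in both libraries, Fxr2 ranked 1172, Fxr1 2257 and Fmr1 4947 by mean CPM, all above the median gene at 18.4 CPM. Of the family's 215 and 208 reads, Fxr2 took 58.6% (Clopper-Pearson interval at 95%, 51.7 to 65.3) in replicate 1 and 56.7% (49.7 to 63.6) in replicate 2. Fxr1 took 28.8% (22.9 to 35.4) and 33.2% (26.8 to 40.02), and Fmr1 12.6% (8.44 to 17.7) and 10.1% (6.36 to 15.0). The order was therefore the same in both libraries.

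None of the 3 genes passed the test between the libraries, a two-sided exact binomial test over all annotated genes with Benjamini-Hochberg adjustment at 0.05, which called 162 of 9433 genes, 1.72%. The log2 ratio of replicate 2 over replicate 1 was 0.04 for Fxr1 (interval -0.47 to 0.56, adjusted p = 1 by the exact binomial test). For Fxr2 it was -0.21 (-0.58 to 0.17, adjusted p = 0.840, same exact test), and for Fmr1 -0.47 (-1.37 to 0.40, adjusted p = 0.875, same exact test). The intervals show what the depth left undecided. A difference of 1 log2 unit in either direction lies outside the intervals of Fxr1 and Fxr2. For Fmr1 it lies inside the interval only as a lower level in replicate 2.

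**Figure D2:**
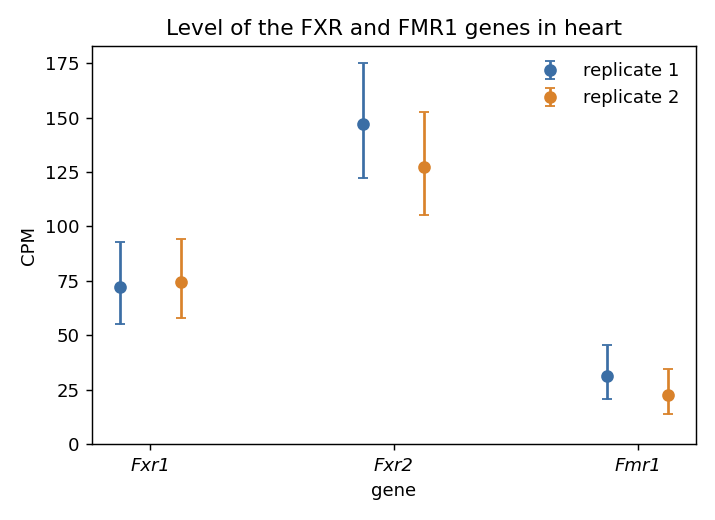
Level of Fxr1, Fxr2 and Fmr1 in CPM (scaled read counts, not divided by length), with a point per library and bars for the exact Poisson interval at 95%. Fxr2 lies highest at 147 and 127 CPM, Fxr1 at 72.3 and 74.5, and Fmr1 lowest at 31.5 and 22.7, in both libraries.

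The libraries carried the markers of heart muscle and its other cell types. A gene counted as detected when both libraries had 3 or more of its reads. All 9 cardiomyocyte markers were detected, with sums of 51464 and 54018 CPM in replicates 1 and 2, and 4 of the 9 (Myl2, Myl3, Actc1 and Tnnc1) were called, each higher in replicate 2, where 0.784% of all genes were called higher and 0.933% lower. The 5 fibroblast markers summed to 6568 and 6362 CPM, the 4 endothelial ones to 422 and 433, and the 4 macrophage ones to 227 and 175, none of them called. Markers of skeletal muscle, the other tissue that includes the 81-base exon, were detected for 0 of 6 genes, with Myh1, Myh2, Myh4, Tnnt3 and Actn3 at 0 reads and Mylpf at 1 read in each library. Neuronal markers, checked because Fmr1 is best known from neurons, were detected for 0 of 5 genes, with Snap25, Syt1 and Tubb3 at 0 reads, Nefl at 2 and 3, and Rbfox3 at 0 and 2. Germ cell markers were detected for 0 of 3 genes, with 1 read in all. In bulk tissue, fewer cells of a type and less RNA per cell cannot be told apart, so the levels of the 3 genes belong to the tissue and not to a cell type.

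Most Fxr1 transcripts carried the 81-base exon. It was included in 49 of 58 informative reads in replicate 1 and in 61 of 65 in replicate 2, or 84.5% (72.6 to 92.7) and 93.8% (85.0 to 98.3), with a mean of 89.2% ± 6.62 (SD, n = 2). An informative read either holds the exon between its splice sites or has an intron that covers it. The 92-base exon was included in 47 of 58 and 58 of 65 reads, or 81.03% (68.6 to 90.1) and 89.2% (79.1 to 95.6), a mean of 85.1% ± 5.80. Both exons were thus in the majority of transcripts in each library, and both were somewhat higher in replicate 2. That difference did not pass a two-sided Fisher's exact test adjusted over 1918 alternative internal exons of 1114 genes (adjusted p = 1 for both exons by the exact test). The test called 0 of the 1918 exons, 0%, with 65 at an unadjusted p under 0.05, and the median difference between libraries over these exons was 4.50 percentage points, against 9.36 for the 81-base and 8.20 for the 92-base exon.

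The remaining 13 internal exons of Fxr1-201 were skipped by no read of either library, apart from 1 read of replicate 2 that lacked the last 63 bases of exon 12. That includes the 53-base exon 2, which the annotated form Fxr1-202 lacks, and the 94-base exon 3, which Fxr1-207 lacks. Exon 2 was in 61 of 61 and 65 of 65 reads, for which the exact intervals begin at 94.1% and 94.5%. Over all genes, 4.46% of 42992 internal exons with at least 20 reads per library had a mean inclusion of 5 to 95%, and 2 of 15 did in Fxr1-201. The 2 shares have unlike bases: the first counts every version of an exon in any model, the second only the exons of 1 annotated form.

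The 87-base stretch within exon 12 was kept in some transcripts and spliced out of others in both libraries. It was spliced out of 22 of the 61 informative reads of replicate 1 and 33 of the 65 of replicate 2, or 36.1% (24.2 to 49.4) and 50.8% (38.1 to 63.4), a mean of 43.4% ± 10.4 (SD, n = 2). It begins with GT and ends with AG, as introns do, and removing it splits the 208-base exon into 58 and 63 bases. The libraries' intervals overlap, and the difference did not pass a two-sided Fisher's exact test (p = 0.109, adjusted p = 1) over 4041 retained introns and alternative splice sites, of which 10, or 0.247%, were called. This kind of event was added after the models had been seen.

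**Figure D3:**
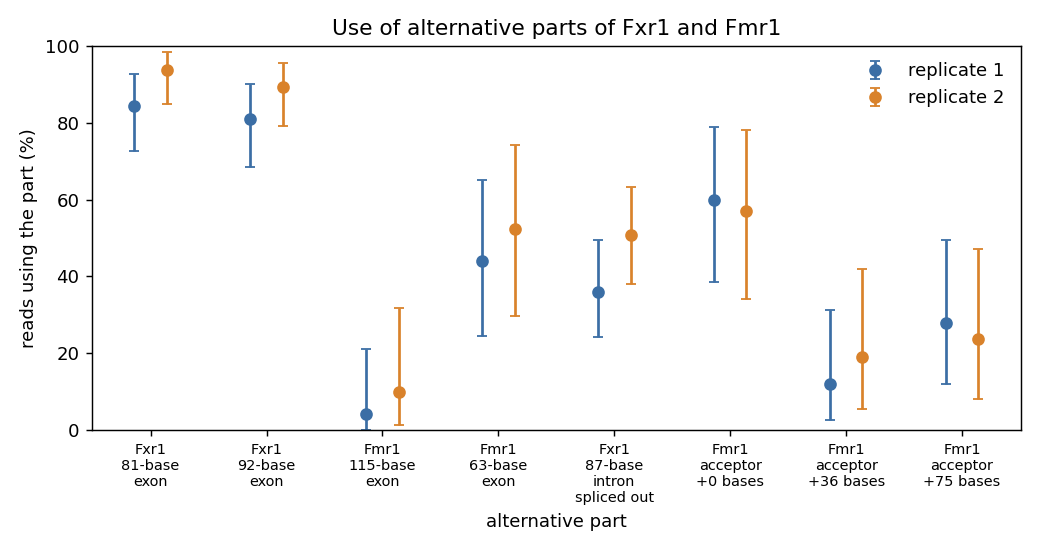
Percent of informative reads that use each alternative part of Fxr1 and Fmr1, a point per library with exact Clopper-Pearson intervals at 95%. The 81- and 92-base exons of Fxr1 lie above 80% in both libraries, its 87-base intron is spliced out in 36.1% and 50.8% of reads, and the 63-base exon of Fmr1 lies at 44% and 52.4%. The acceptors of Fmr1 exon 15 are named by their distance in bases from the outermost.

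Because a long read shows all parts of a transcript together, the 2 exons of Fxr1 could be followed on the same molecule. In replicate 1, 45 reads held both exons, 4 the 81-base exon alone, 2 the 92-base exon alone and 7 neither. In replicate 2 the same counts were 57, 4, 1 and 3. Reads with the 81-base exon held the 92-base exon in 91.8% (80.4 to 97.7) and 93.4% (84.1 to 98.2) of cases, and reads without it did so in 22.2% (2.81 to 60.0) and 25% (0.631 to 80.6). The 92-base exon was thus more frequent on reads with the 81-base exon in each library, by two-sided Fisher's exact tests adjusted over all pairs of alternative exons (adjusted p = 0.000218 in replicate 1 and 0.0149 in replicate 2, exact tests). Calls of this kind were common in these libraries. Of 4938 tests over 2469 exon pairs of 369 genes, 1124, or 22.8%, were called, 21.1% for exons used together and 1.66% for exons used apart. The share of reads without the 81-base exon rests on 9 reads in replicate 1 and 4 in replicate 2.

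For removal of the 87-base stretch, joint use with either exon did not pass the test. The 81-base exon was in 16 of 21 reads that had lost the stretch and in 33 of 37 that kept it in replicate 1, and in 27 of 30 and 31 of 32 in replicate 2. For the 92-base exon the counts were 18 of 21 and 29 of 37, then 26 of 30 and 29 of 32. All 4 comparisons gave an adjusted p = 1 by the exact test, against 4.7% of 9654 such tests called over all genes, but the groups are small: the 81-base exon had 76.2% (52.8 to 91.8) with the stretch lost and 89.2% (74.6 to 97.0) with it kept in replicate 1.

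Of the 8 combinations of the 3 parts, 7 were seen among 58 and 62 reads that show all 3. The most frequent kept the 87-base stretch and both exons, the pattern of Fxr1-201, in 29 reads of each library, or 50% and 46.8%. Next came removal of the stretch with both exons kept, in 16 and 25 reads, or 27.6% (16.7 to 40.9) and 40.3% (28.1 to 53.6). Each of the other 5 combinations seen had 0 to 4 reads in a library. The combination with 0 reads kept the stretch and the 92-base exon and skipped the 81-base exon.

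**Figure D4:**
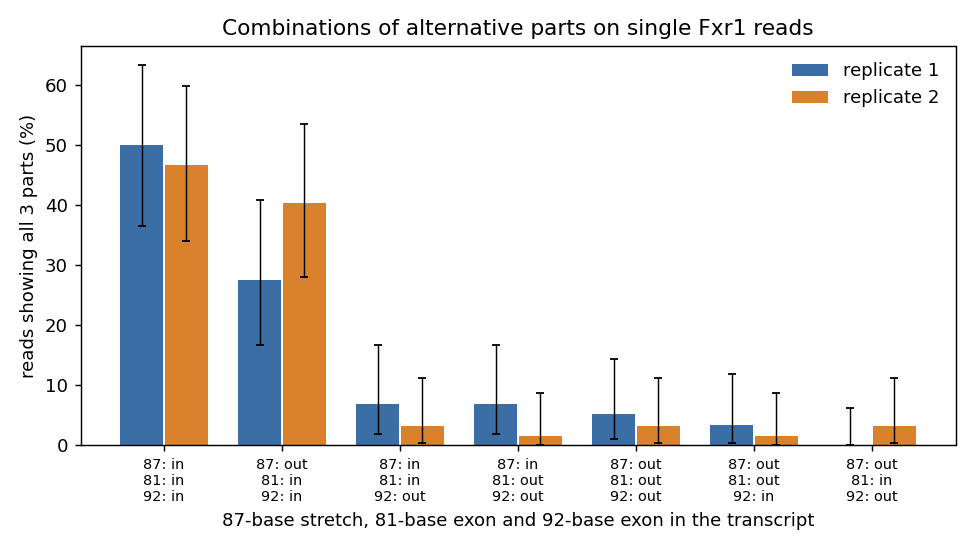
Percent of Fxr1 reads that show all 3 alternative parts (58 in replicate 1, 62 in replicate 2) in each combination, with exact Clopper-Pearson intervals at 95%; "in" means that the part is in the transcript and "out" that it is not. The 2 combinations with both exons in take 50% and 27.6% of reads in replicate 1 and 46.8% and 40.3% in replicate 2.

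The parts differ in what they do to the reading frame, as read from the reference sequence. The 81-base exon and the 87-base stretch are multiples of 3 in length and leave the end of the protein as it is. The 92-base exon is not, and with it the frame reaches a stop codon at chr3:34069085, without it one at chr3:34068931, so the exon exchanges the end of the protein. With both exons and the stretch, the coding sequence of Fxr1-201 has 2031 bases, and with the stretch removed 1944. Skipping both exons leaves 1704 bases with the stretch, the form Fxr1-206, and 1617 without it, the form Fxr1-208. Skipping the 92-base exon alone leaves 1785 bases. The 92-base exon, which gives the longer ending on the reference, was in 47 and 58 reads, and 11 and 7 skipped it. The frame of each read was not followed.

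Among whole forms, Fxr1-201 led with 25 and 27 reads, 40.3% (28.1 to 53.6) and 39.1% (27.6 to 51.6) of the gene's reads. The second form is not in GENCODE M21: it has 18 exons, the splicing of Fxr1-201 with the 87-base stretch removed, and took 14 and 23 reads, 22.6% (12.9 to 35.0) and 33.3% (22.4 to 45.7). Another form, with 16 exons, includes the 81-base exon and skips the 92-base one, is also unannotated, and had 4 and 2 reads. The annotated forms Fxr1-208, Fxr1-206 and Fxr1-204 had 3 and 2, 3 and 1, and 2 and 1 reads, and the 5 other annotated transcripts of the gene had 0. Among forms that are annotated or had at least 5 reads in each library, Fxr1-201 took 53.2% (38.1 to 67.9) and 50% (36.1 to 63.9), and the difference between the libraries did not pass Fisher's exact test (adjusted p = 1), which called 2 of 2747 genes, 0.0728%. Among annotated forms alone its mean share was 81.4%.

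New combinations of known splice sites, the class of both unannotated forms named, took 29.7% and 40.6% of Fxr1 reads, against 5.70% and 5.49% of the reads of all annotated genes. Annotated forms took 51.6% and 44.9% of Fxr1 reads, against 78.8% in each library over all annotated genes. Fxr1 had 26 forms in all outside the genomic class, of which 17 rested on 1 read. Chosen after their values were seen, 3 reads of replicate 1 ended at chr3:34065754 and 1 of replicate 2 at chr3:34065756, in the intron that follows the 81-base exon.

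Most Fxr2 reads were on its only annotated coding form. With genomic-class reads counted, annotated forms took 90.6% of its reads in replicate 1 and 79.5% in replicate 2. Over all annotated genes they took 78.8% in each library. Fxr2-201, with 17 exons and 2022 coding bases, took 115 of 126 reads in replicate 1, 91.3% (84.9 to 95.6), and 97 of 118 in replicate 2, 82.2% (74.1 to 88.6). No read of either library skipped any of its 15 internal exons, each of which was held by 120 to 126 reads in replicate 1 and 106 to 117 in replicate 2. The remaining reads were incomplete (4 and 11), new combinations of known sites (2 and 5) or had a new splice site (5 and 5). All 15 incomplete reads lacked the 5′ part of the gene. The 5 other annotated transcripts of Fxr2, none of them coding, had 0 reads.

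Exon 15 of Fxr2-201, which has the number of the 81-base exon of Fxr1-201, is 96 bases long and lies at chr11:69651978-69652073. No read skipped it. In 2 of 126 reads of replicate 1 and 3 of 116 of replicate 2, or 1.59% (0.193 to 5.62) and 2.59% (0.537 to 7.37), it began 3 bases further in. Neither the shorter exon nor the intron before it is annotated, and the change leaves 2019 coding bases and the same stop codon. The 96-base exon is shown with those 3 bases in capitals.
Fxr2 96-base exon: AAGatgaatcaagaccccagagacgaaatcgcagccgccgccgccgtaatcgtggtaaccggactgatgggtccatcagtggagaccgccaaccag
The 166-base intron between exons 12 and 13 was kept in 0 of 125 and 5 of 116 reads. It was thus spliced in 100% (97.1 to 100) and 95.7% (90.2 to 98.6) of reads, intervals that overlap. Neither site reached the mean use of 5 to 95% required for a test, and both were chosen after their values were seen.

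Fmr1 was spliced in several ways despite its few reads. The 63-base exon was held by 11 of the 25 informative reads of replicate 1 and 11 of the 21 of replicate 2, or 44% (24.4 to 65.1) and 52.4% (29.8 to 74.3), a mean of 48.2% ± 5.93 (SD, n = 2). Exon 15 began at its outermost acceptor in 15 of 25 and 12 of 21 reads, 60% and 57.1%. It began 36 bases further in, which gives a 147-base exon, in 3 and 4 reads, 12% (2.55 to 31.2) and 19.0% (5.45 to 41.9). It began 75 bases further in, which gives a 108-base exon, in 7 and 5 reads. Both inner acceptors follow the bases AG, and the 147-base version is not in GENCODE M21 while the others are. No difference between the libraries passed Fisher's exact test (adjusted p = 1 for each part), and with 25 and 21 reads the intervals are wide.

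All 6 combinations of the 63-base exon with the 3 acceptors were read. On the reference of Fmr1-201 with only these parts changed, all keep the reading frame to the stop codon at chrX:68715673. The coding lengths given here are for that reference. Reads with a combination can carry other changes, and the frame of each read was not followed. The 183-base version without the 63-base exon, the pattern of Fmr1-206, had 8 and 7 reads and 1779 coding bases. With the exon, the pattern of Fmr1-201, it had 6 and 5 reads and 1842 coding bases. The 108-base version had 4 reads with the exon in each library (1767 bases) and 3 and 1 without it (1704 bases), and the 147-base version had 1 and 2 with it (1806 bases) and 2 and 2 without it (1743 bases). Joint use of the exon and an acceptor on the same read did not pass the exact test in either library (adjusted p = 1 in all 6 tests).

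As whole forms, Fmr1-206 had 8 and 7 reads, Fmr1-201 6 and 5, and Fmr1-202, with the 63-base exon and the 108-base version, 3 and 2. The other 3 coding forms in GENCODE M21 had 0 reads. An exon that is not annotated lay between exons 2 and 3 in 2 reads of replicate 1 and 3 of replicate 2. It ended at chrX:68691031 in all 5 and began at 3 different places, and its 115-base version, the most frequent, was in 1 of 24 and 2 of 20 reads, 4.17% (0.105 to 21.1) and 10% (1.23 to 31.7). A length of 115 bases is not a multiple of 3. The replicate 1 read with that version also held the 63-base exon and the 108-base version of exon 15. The coding length given for that combination was not checked for this read. In replicate 1, 1 read ran from exon 4 straight to exon 15, the only skipping seen of any annotated Fmr1 exon other than the 63-base one.

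Of 24 partners and granule proteins of the family, 20 were detected, and 0 of the 19 with enough reads to test were called, against 1.72% of all genes. Ybx1, an abundant messenger-binding protein, was highest at 931 ± 5.35 CPM (SD, n = 2). G3bp1 and G3bp2, which assemble stress granules, stood at 450.0 ± 38.2 and 170 ± 13.2 CPM, and Caprin1, their partner, at 151 ± 2.64. Eif4e, which binds the messenger cap, had 137 ± 1.27 CPM. These 5 were named as the highest of the 24 by mean CPM, so every other partner is lower by that choice. Cyfip1, Cyfip2, Nufip1 and Nufip2 were named whatever their level. Cyfip1, which links the Fmr1 protein to cap binding and to actin, had 57 and 59 reads (65.1 ± 1.95 CPM), its relative Cyfip2 16 and 16 reads (17.96 ± 0.975 CPM), and Nufip1, a nuclear partner, 18 and 13 reads (17.5 ± 4.91 CPM). The 4 partners under 3 reads in a library were Nufip2, at 0 and 2 reads, Ddx6, an RNA helicase of processing bodies, at 2 and 1, and the Argonaute genes Ago1, at 0 in both, and Ago2, at 3 and 1. With 3 reads taken as the limit that a count of 0 allows, that limit is 3.50 CPM in replicate 1 and 3.24 in replicate 2.

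All 6 messages reported as bound or controlled by Fxr1 in striated muscle were detected, and 2 of the 6 were called between the libraries, where 1.72% of all genes were. Gja1, the main gap junction protein of the ventricle, had 1156 and 1505 reads, or 1347 and 1624 CPM, and was higher in replicate 2 with a log2 ratio of 0.27 (adjusted p = 0.000296, exact binomial test). Cdkn1a, a cell cycle inhibitor, had 29 and 6 reads, or 33.8 and 6.48 CPM, and was lower in replicate 2 with a log2 ratio of -2.38 (adjusted p = 0.00330, exact binomial test). The other 4 did not pass: Dsp, of the desmosome, at 67.8 ± 1.30 CPM, Gjc1, a gap junction protein, at 70.4 ± 5.69, Tln2, a talin, at 24.2 ± 3.69, and Tjp1, of tight junctions, at 9.02 ± 2.07. Of the 9 cardiomyocyte markers, the 4 called ones were higher in replicate 2 as Gja1 was, with log2 ratios from 0.15 to 0.32. The uncalled ones had 0.19 for Tnni3, 0.03 for Pln, -0.02 for Myh6, -0.05 for Tnnt2 and -0.62 for Ryr2. The part of those markers in this result was not tested.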

How the data were processed

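In the authors' deposited tables each transcript model has a whole-number read count, made separately for each library. Per the text deposited with each library, filtered alignments on mm10 were quantified with GENCODE M21, and per the file headers TALON named the models and their classes. The aligner, filters and versions were not given in the sources used here. Replicate 1 held 896941 reads and replicate 2 held 972159.

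A gene's reads were added up over every class but genomic and scaled to CPM by library totals without spike-ins. Models were matched between libraries by intron chain. Unannotated loci have different identifiers in each library and were left out of the gene test. Tests used genes with at least 10 reads in all, parts or pairs with 20 or more informative reads per library, and parts with a mean use of 5 to 95%. Every test ran over all genes with Benjamini-Hochberg adjustment at 0.05. The gene and exon tests between libraries were checked on simulated data, which the other tests were not. With 1 group, no count model with a group term could be used. edgeR 4.0.16 gave TMM totals as an alternative, and scipy 1.17.1 in Python 3.11.15 the exact tests.

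Members and lists were chosen with earlier results of these data known. The text names, by rule, the 3 genes, their annotated forms with at least 3 reads and unannotated ones with at least 5 over both libraries, alternative exons, the 5 highest partners, 4 direct ones, partners under 3 reads or called, and all 6 messages of Fxr1. Retained introns, alternative splice sites and their pairs were added after the data had been seen.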

Additional observations from a re-analysis of the deposited data

Results flagged for a closer look

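Reads that were not counted for the members lay over all 3 genes. On the strand opposite to Fxr1, models of Dnajc19, which overlaps its end, had 11 reads in replicate 1 and 6 in replicate 2, and unannotated antisense loci had 2 and 1. On the strand opposite to Fxr2, unannotated antisense loci with 1 exon had 14 and 22 reads, and Mir467f, a microRNA gene within an intron of Fxr2, had 16 reads in replicate 1 and 0 in replicate 2. In replicate 2, 4 reads of Fxr2 were classed as genomic and left out, against 1 in replicate 1, and Fxr1 had 2 such reads in replicate 1. Opposite to Fmr1 there was 1 read, in replicate 1.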

How the results depend on the processing

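With annotated models alone, which leaves out the unannotated 18-exon form, Fxr1 stood at 45.9 CPM and 20.9% of the family's reads, and Fxr2 at 152 CPM and 69.0%. CPM in that setting is scaled to the reads of annotated models, 668839 and 728992 in replicates 1 and 2. On these smaller totals the CPM of Fxr2 is higher although its reads fell to 115 and 97. Fxr1-201 was then the only form left with reads that held the 81-base exon. Inclusion of this exon and the leading form share of Fxr1 were therefore the same ratio, at 81.4%. With every complete model counted, that share was 42.6% for Fxr1, 92.5% for Fxr2 (100% otherwise, as Fxr2-201 was the only usable form) and 32.7% for Fmr1. With incomplete models added to the usable forms, which gave 51.6%, 100% and 48.5%, it was 47.4%, 93.2% and 46.1%. Genes called for the leading form were 2, and 33 with incomplete models, 1 with annotated models alone and 1 at a minimum of 10 reads. Exons called between libraries were 0, and 4 without incomplete models. The log2 ratio of Fxr1, 0.04, was -0.01 with genomic reads and -0.21 with annotated models alone, uncalled throughout. The leading form share of Fxr1 differed between the libraries by -3.19 points, and by 11.3 with annotated models alone, uncalled in both. The causes were not tested. The joint use of the Fxr1 exons stayed called in each library at a minimum of 10 reads and without incomplete models (highest adjusted p = 0.0213, Fisher's exact test). Leaving out a replicate gave 72.3 to 74.5 CPM for Fxr1, 127 to 147 for Fxr2 and 22.7 to 31.5 for Fmr1. No paired analysis was possible because there is 1 group. Depth limits Fmr1 most, with 27 and 21 reads.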
